A study of Rattus norvegicus with 16 samples.

Results

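The immediate early genes Fos, Fosb, Jun, Junb, Egr1, Egr2, Atf3, Ier2 and Nr4a1, together with Dusp1, were chosen as the genes whose name in the array design equals 1 of these 10 symbols, and they were carried by 11 of the 30367 probes that are not controls. Egr1 had 2 probes and every other gene had 1, which came to 53 spots on each array. The genes were measured in stomach and in the middle part of the intestine of suckling Wistar rats (Wistar Han in the methods), on 16 Agilent SurePrint G3 microarrays of 2 colours. Group OH was given obestatin, a peptide made from the same precursor as ghrelin, in enteral doses of 250 nmol/kg BW, and group C was given saline solution by the same route, 2 times daily between days 14 and 21 of life. With 2 tissues and 2 treatments there were 4 groups (C and OH stomach, C and OH middle intestine), and 4 arrays in each. All rats, controls included, were handled for gavage during those 7 days, and by the methods tissue was taken shortly after the last gavage of the morning. Every array paired the Cy5-labelled RNA of 1 rat with Cy3-labelled RNA of a common reference pooled from all rats, without a dye swap, and values below are log2 ratios of Cy5 to Cy3 unless a channel is named.

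Immediate early genes are switched on within minutes of a growth factor, hormone, nerve or stress signal, because the factors that start them already wait in the resting cell and are activated by kinases of the MAP kinase cascades. Most encode transcription factors that change the later expression of other genes, and their messages are short-lived, so that their level follows the recent history of a tissue, its handling included. In the gut they are known to respond to feeding, injury and mitogens in the epithelium and to stretch and contraction in the muscle layers. Dusp1 encodes a phosphatase that is induced by the same signals and removes phosphate from the MAP kinases p38, JNK and ERK, and so belongs to the feedback of the pathway.

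Sequence before the transcription start was at hand from RefSeq (GRCr8) for 7 of the 10 genes. Among 33469 promoters of 300 bases, 250 before and 50 after the start, 1.64% held a CArG box, the binding motif of serum response factor, and the promoters of Egr1 and Egr2 were among them. The cyclic AMP response element TGACGTCA was found in 1.83% of all promoters and in those of Ier2 and Dusp1. The motif TGACTCA, an AP-1 site, occurred in 4.63% of all promoters and in 0 of these 7, the EGR motif GCGGGGGCG in 2.73% and in that of Nr4a1, and TATAAA in 14.2% and in those of Fosb and Junb. All motifs were searched on both strands, and a match describes letters and not binding. The last 150 bases before the start are printed for Egr2, Ier2 and Dusp1, 5′ to 3′ on the strand of the gene, because they show the CArG box, which Egr1 also held, and the TGACGTCA motif shared by Ier2 and Dusp1. Capitals mark the CArG box, whose first base lies at position -83 in Egr2, and TGACGTCA, which begins at -66 in Ier2 and at -124 in Dusp1.
Egr2, chr20:21054442-21054591, strand -: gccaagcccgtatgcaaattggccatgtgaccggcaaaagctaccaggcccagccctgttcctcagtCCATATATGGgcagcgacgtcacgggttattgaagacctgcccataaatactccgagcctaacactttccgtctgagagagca
Ier2, chr19:40399223-40399372, strand +: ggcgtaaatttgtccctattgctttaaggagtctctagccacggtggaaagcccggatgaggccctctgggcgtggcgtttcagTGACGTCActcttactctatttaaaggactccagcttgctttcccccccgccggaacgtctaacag
Dusp1, chr10:17184703-17184852, strand +: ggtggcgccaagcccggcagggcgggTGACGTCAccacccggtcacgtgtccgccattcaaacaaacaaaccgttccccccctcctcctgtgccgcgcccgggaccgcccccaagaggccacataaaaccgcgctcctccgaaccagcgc

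The arrays of a group correlated with each other at 0.707 to 0.943 over all probes. Each group filled 1 slide, and both OH slides were scanned on a day other than that of both C slides, so treatment cannot be told apart from slide or from scan day. The common reference itself differed between OH and C slides, as its quantile-normalized Cy3 signal passed the test (limma, adjusted p under 0.05) at 48.0% of 21174 probes for stomach and at 64.3% for middle intestine. Markers of both tissues were found where the labels place them: the mean ratio of 10 stomach mucosa genes was 2.23 to 3.20 on stomach arrays and -3.91 to -3.27 on intestine arrays, while that of 12 enterocyte genes was -3.20 to -2.89 and -0.20 to 1.80. A pair of arrays stood apart: in C stomach replicate 2 the mean of 12 striated muscle genes was -0.93 against 3.05 to 3.76 on the other 3 arrays of its group, and in OH middle intestine replicate 4 the mean of 9 pancreas genes was -1.59 against -3.35 to -3.11. In whole tissue, fewer cells of a type and less RNA per cell cannot be told apart.

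A probe entered the tests when some group had it well above background in the Cy5 channel on each of its 4 arrays. All probes but that of Egr2 met this, so that 10 probes of 9 genes were tested among 21174 probes. Dusp1 passed only through OH middle intestine and was well above background on 12 of 16 arrays, whereas Egr2 was so on 4. The probe of Dusp1 covers 320 bases of rn4 with 60 bases of sequence (chr10:16944342-16944661, plus strand), so it spans a gap in the genome, and is printed because its dim signal limits what can be said of this gene.
Dusp1 probe: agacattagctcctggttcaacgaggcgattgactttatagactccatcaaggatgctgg

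Fos encodes the partner with which Jun proteins form the AP-1 factor, and its probe lies on rn4 chromosome 6 from 109561941 to 109562000. Its ratios were 0.91, -0.06, 1.02 and 2.91 in replicates 1 to 4 of C stomach and 0.82, 0.38, 0.45 and 0.81 in OH stomach. In middle intestine they were 0.97, 0.13, 1.64 and 0.53 in C and 1.94, 2.71, 0.96 and 0.53 in OH. C stomach replicate 4 was the highest of all 16 arrays and C stomach replicate 2 the lowest, and OH and C overlapped in both tissues. In stomach the mean of C was 1.19 ± 1.24 (SD, n = 4) and that of OH 0.62 ± 0.23 (SD, n = 4), a difference of -0.58 (SE 0.56, 95% interval -1.77 to 0.62, limma adjusted p = 0.744). The means of middle intestine were 0.82 ± 0.64 (SD, n = 4) for C and 1.54 ± 0.98 (SD, n = 4) for OH, a difference of 0.72 (SE 0.56, 95% interval -0.48 to 1.92, limma adjusted p = 0.734). Both differences were smaller in size than the SD between arrays of a group pooled over the 4 groups (0.86), of which C stomach had the widest. The stomach difference was larger than the SD of OH stomach, and the intestine difference larger than that of C middle intestine. Without C stomach replicate 2 the stomach difference was -0.99, and without replicate 4 it was -0.0048.

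Fosb, a relative of Fos, stood at 0.32, 0.17, 0.12 and -0.0042 in C stomach and at -0.08, 0.40, 0.55 and -0.03 in OH stomach. In C middle intestine its ratios were 0.65, 1.104, 0.44 and 0.49 and in OH middle intestine 0.56, 0.24, 1.38 and 0.84. The groups of a tissue overlapped, and OH minus C was 0.06 (SE 0.22) in stomach and 0.08 (SE 0.22) in middle intestine. Both channels of this probe differed between the slides: in stomach the quantile-normalized Cy5 signal differed by -0.996 between OH and C and the Cy3 signal of the reference by -1.05. In middle intestine these differences were -1.103 and -1.21, and the Cy5 difference taken alone passed the test (SE 0.24, limma adjusted p = 0.041), while that of stomach did not (limma adjusted p = 0.152). The Cy3 signal lay between 9.92 and 10.15 on the log2 scale on all 8 C arrays and between 8.78 and 9.09 on all 8 OH arrays. A reference described as the same pool on every array thus read lower on the OH slides by about the amount that the tissue did, and treatment and slide cannot be told apart in Cy5. The probe is printed since it carried the largest shift of the reference among the 9 genes (chr1:78668672-78668731 of rn4, minus strand).
Fosb probe: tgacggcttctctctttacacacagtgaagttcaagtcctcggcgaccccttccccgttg

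Jun, the central subunit of AP-1 and a target of the kinase JNK, is measured on rn4 chromosome 5 from 115359410 to 115359469. Its ratios were 0.0027, -0.82, -0.17 and 0.24 in C stomach and 0.29, -0.37, -0.58 and -0.21 in OH stomach. They were -0.62, 0.03, 0.01 and 0.68 in C middle intestine and 0.78, 0.28, 0.18 and 0.98 in OH middle intestine. All 4 OH intestine arrays were above 0, yet C replicate 4 lay inside their range and the groups overlapped. The difference of OH from C was -0.03 (SE 0.29) in stomach and 0.53 (SE 0.29, 95% interval -0.09 to 1.15, limma adjusted p = 0.589) in middle intestine. Junb, which forms AP-1 with Fos proteins and often opposes Jun, varied less. It had ratios of 1.15, 1.00, 1.29 and 1.53 in C stomach and of 0.94, 1.01, 1.11 and 0.97 in OH stomach. Its 4 ratios in C middle intestine were 1.18, 0.99, 0.60 and 0.70 and those in OH middle intestine 1.47, 1.06, 1.22 and 0.59. The ratio of Junb was thus above 0 on every array, though without a dye swap level and dye cannot be told apart in this. OH minus C for Junb was -0.24 (SE 0.18) in stomach and 0.21 (SE 0.18) in middle intestine, between overlapping groups.

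Atf3, a stress-induced factor that binds cyclic AMP response elements and AP-1 sites, spread widely in saline stomachs and narrowly elsewhere. Its ratios were 1.60, -0.59, 1.43 and 2.36 in C stomach and 0.79, 0.66, 0.16 and 0.86 in OH stomach. In middle intestine they were 0.14, 0.92, 1.07 and 1.19 in C and 1.87, 1.78, 1.18 and 1.56 in OH. C stomach replicate 2 was the only array below 0, the other 3 C stomach arrays lay above all OH stomach arrays, and in middle intestine the lowest OH array fell just under the highest C array. The difference was -0.58 (SE 0.46, 95% interval -1.57 to 0.40, limma adjusted p = 0.683) in stomach and 0.77 (SE 0.46, 95% interval -0.22 to 1.76, limma adjusted p = 0.626) in middle intestine. The 2 tissue responses differed by -1.35 (SE 0.65, unadjusted p = 0.056, adjusted p = 0.836 in limma). The stomach difference was -1.18 without C stomach replicate 2, the array low in striated muscle genes, and -0.20 without C stomach replicate 4.

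**Figure D1:**
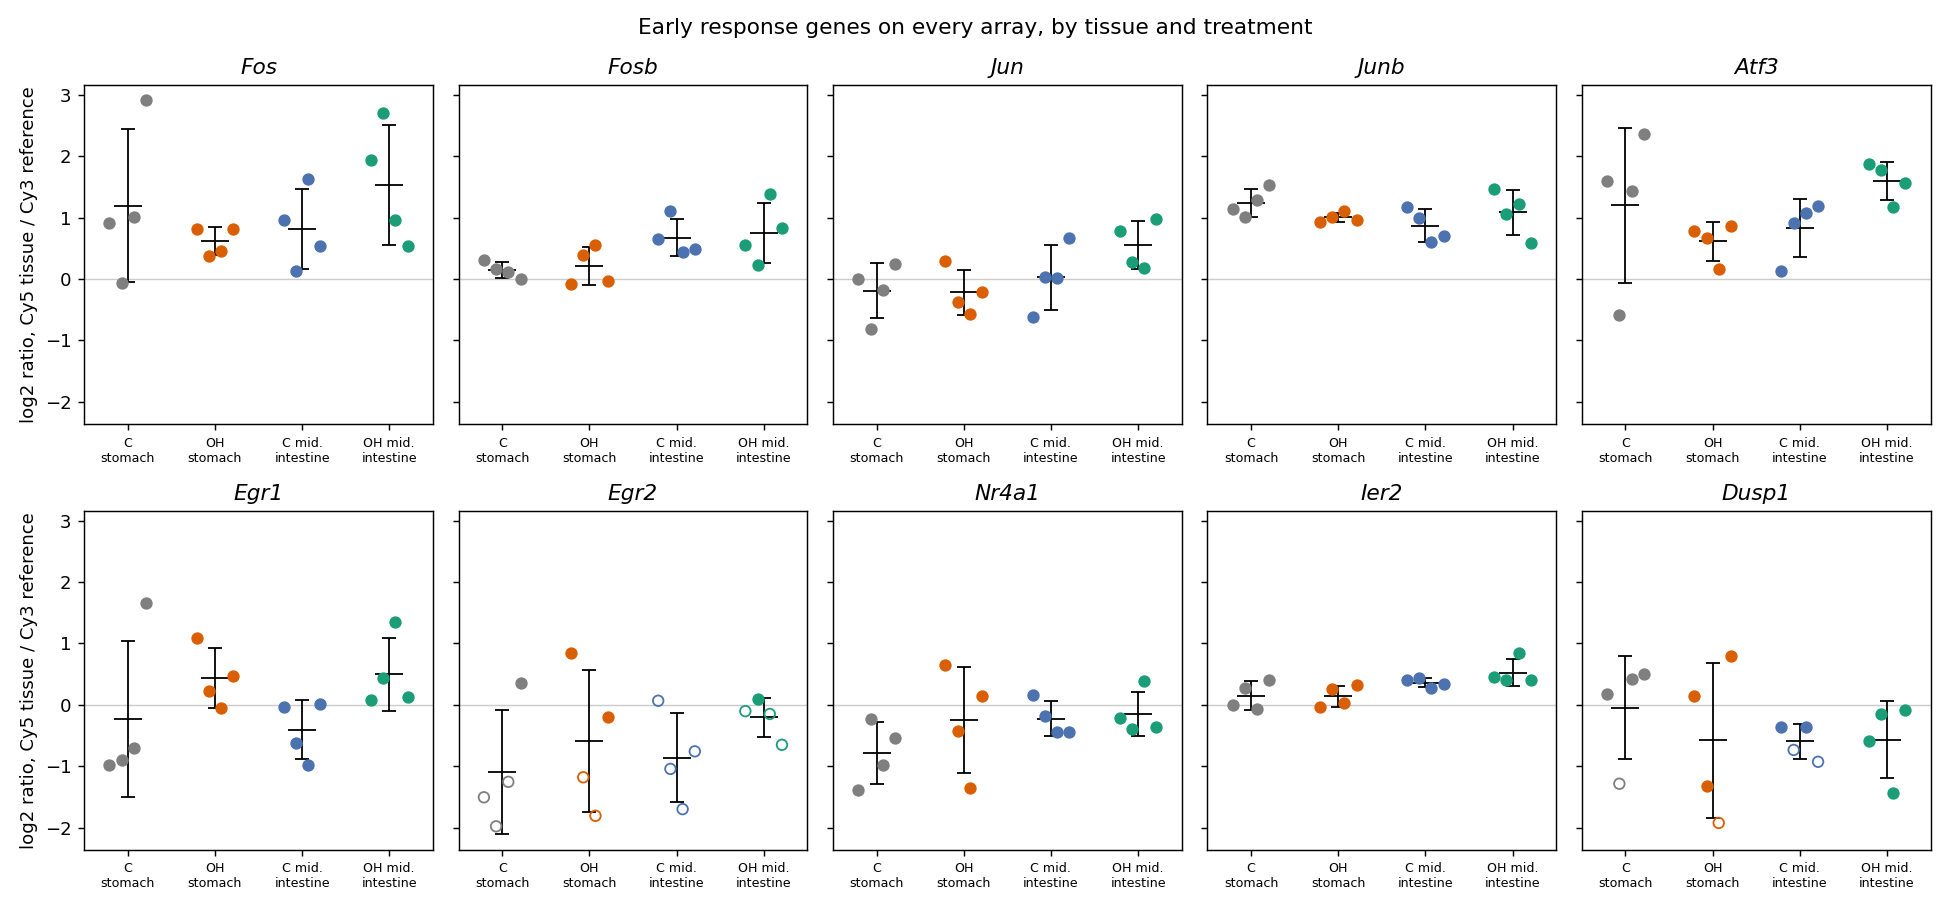
Log2 ratio of tissue (Cy5) to common reference (Cy3) for the 10 genes, with 1 point per array in replicate order, bars for the mean ± SD of 4 arrays, and open points where less than 0.5 of the gene's spots were well above background in Cy5. Fos and Egr1 reached 2.91 and 1.66 on C stomach replicate 4, while the range of Ier2 within a group was 0.16 to 0.48.

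Egr1, a zinc finger factor that is among the most responsive genes to growth factor signals, had 2 probes on rn4 chromosome 18, at 27347173 to 27347232 with 10 spots and at 27346058 to 27346117 with 2 spots. By the brighter probe its ratios were -0.99, -0.91, -0.71 and 1.66 in C stomach and 1.09, 0.22, -0.05 and 0.47 in OH stomach. In C middle intestine they were -0.04, -0.63, -0.98 and 0.01 and in OH middle intestine 0.07, 0.43, 1.35 and 0.13. In stomach 3 of 4 C arrays lay under every OH array and replicate 4 lay above them all, and in middle intestine the groups did not overlap, although OH replicate 1 at 0.07 lay close to C replicate 4. The difference was 0.67 (SE 0.51, limma adjusted p = 0.669) in stomach and 0.90 (SE 0.51, 95% interval -0.18 to 1.98, limma adjusted p = 0.594) in middle intestine, where an exact permutation test of the brighter probe gave p = 0.029, the smallest that 4 against 4 arrays allow. The second probe overlapped in middle intestine, with ratios of -0.998, -1.05, -0.81 and -0.35 in C and 0.06, -0.08, 0.64 and -0.53 in OH, and the mean of both probes gave an exact p of 0.057. After Benjamini-Hochberg adjustment over the 20 exact tests, which took the mean over probes for each of 10 genes in 2 tissues, the smallest value was 0.571. Without C stomach replicate 4 the stomach difference of Egr1 was 1.30.

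Egr2, a related factor, was dim. It was well above background on 1 array of C stomach, 2 of OH stomach, 0 of C middle intestine and 1 of OH middle intestine. Its ratios were -1.51, -1.98, -1.25 and 0.36 in C stomach and 0.84, -1.18, -1.81 and -0.20 in OH stomach. Those in middle intestine were 0.07, -1.04, -1.70 and -0.76 in C and -0.10, 0.10, -0.15 and -0.65 in OH. In stomach the arrays on which it was well above background, C replicate 4 and OH replicates 1 and 4, were also the highest for Egr1 in their groups, whereas in OH middle intestine it was so on replicate 2 and Egr1 was highest on replicate 3. No fold change is given, because no group had Egr2 well above background on more than 2 of its 4 arrays.

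Nr4a1, an orphan nuclear receptor of the early response, was high on single stomach arrays of the OH group. Its ratios were -1.38, -0.22, -0.99 and -0.54 in C stomach and 0.65, -0.43, -1.36 and 0.14 in OH stomach. They were 0.16, -0.19, -0.44 and -0.45 in C middle intestine and -0.22, -0.40, 0.38 and -0.36 in OH middle intestine. The groups overlapped in both tissues, with a difference of 0.53 (SE 0.36, limma adjusted p = 0.626) in stomach and 0.08 (SE 0.36) in middle intestine. Ier2, a small nuclear protein of the early response, was the steadiest. Its stomach ratios were -0.01, 0.28, -0.08 and 0.41 in C and -0.04, 0.25, 0.03 and 0.32 in OH. Those of middle intestine were 0.40, 0.43, 0.27 and 0.34 in C and 0.45, 0.40, 0.85 and 0.40 in OH, where replicate 3 stood alone above the rest and the groups overlapped. The interval of its OH difference was accordingly the narrowest, -0.30 to 0.28 around -0.01 in stomach and -0.13 to 0.46 around 0.16 in middle intestine.

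Dusp1, the phosphatase, had ratios of 0.18, -1.29, 0.42 and 0.50 in C stomach and of 0.14, -1.33, -1.92 and 0.79 in OH stomach. In C middle intestine they were -0.36, -0.73, -0.36 and -0.93 and in OH middle intestine -0.58, -0.15, -1.44 and -0.08. The low values of C stomach replicate 2 and OH stomach replicate 3 came from spots not well above background, as did C middle intestine replicates 2 and 4. C middle intestine replicate 1 and OH middle intestine replicate 3 had 50% of their spots well above background. The groups overlapped. The difference was -0.53 (SE 0.54, 95% interval -1.69 to 0.62) in stomach and 0.03 (SE 0.54) in middle intestine, and in both tissues the reference read higher on OH slides, by 0.50 and 0.68 in Cy3. In Cy5 alone the differences were 0.0012 and 0.75.

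Counted over the tests, 0 of 10 probes of these genes passed an adjusted p of 0.05 for OH against C in stomach, where 0% of all 21174 probes passed, and 0 passed at an unadjusted p under 0.05, beside 10.6% of all probes. In middle intestine 0 of 10 passed, beside 0.368% of all probes, and 0 at an unadjusted p, beside 10.5%. Egr1, by its brighter probe, was 1 of 9 genes whose arrays did not overlap in middle intestine, beside 5.86% of all probes, and in stomach 0 of 9 did so, beside 7.6%. These counts lie near the share of the whole array. Over both tissues together 0 passed after adjustment, beside 0.685% of all probes, and both Egr1 probes had an unadjusted p under 0.05, as did 14.5% of all probes, with differences of 0.78 (SE 0.36, limma adjusted p = 0.329) and 0.69 (SE 0.30, limma adjusted p = 0.297). The test of the difference between the 2 tissue responses passed for 0 of 10 probes, beside 0% of all probes, and had no unadjusted p under 0.05 among them, beside 5.85%.

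In stomach 3 of the 9 genes tested were higher in OH and 6 lower, with a median of -0.03, beside 0.0067 over all 21174 probes. Dusp1 entered the tests only through OH middle intestine, so it is left out of the next count. In middle intestine the 8 other genes were all higher in OH, with a median of 0.37, beside 0.0011 over all probes. Some lists of cell type markers leaned in the same contrasts too. In OH middle intestine 9 of 12 enterocyte genes (median 0.35), 9 of 10 stomach mucosa genes (0.31) and 8 of 9 pancreas genes (0.61) were higher. Medians were smaller for smooth muscle (6 of 8 higher, 0.12), fibroblast and endothelial (6 of 7, 0.087) and leukocyte genes (5 of 8, 0.12). Of striated muscle genes 6 of 12 were higher (0.014), and of enteric neuron genes 2 of 8 (-0.12). In OH stomach 8 of 8 smooth muscle genes were higher (median 1.33) and 11 of 12 striated muscle genes lower (-2.26). There 7 of 7 fibroblast and endothelial genes (0.59), 7 of 8 enteric neuron genes (0.24) and 6 of 8 leukocyte genes (0.16) were higher. Of stomach mucosa genes 8 of 10 were lower (-0.09). Enterocyte genes (7 of 12 higher, 0.12) and pancreas genes (4 of 9 higher, -0.018) were mixed. None of these marker genes passed the adjusted test, and their part in the direction of the early response genes was not tested. The mean ratio of the 8 genes was 0.35, 0.35, 0.33 and 0.44 on the C intestine arrays and 0.87, 0.81, 0.94 and 0.58 on the OH intestine arrays, so that these means did not overlap. The means over all probes did not overlap either, at -0.03 to -0.00026 in C and 0.0027 to 0.02 in OH, though they lay far closer together. On stomach arrays the mean of the 8 genes was 0.20, -0.14, 0.24 and 1.07 in C and 0.56, 0.27, 0.04 and 0.42 in OH, and these overlapped. In Cy5 alone 7 of these 8 genes were higher on the OH intestine arrays and Fosb was lower. Slide and treatment cannot be told apart in these values.

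**Figure D2:**
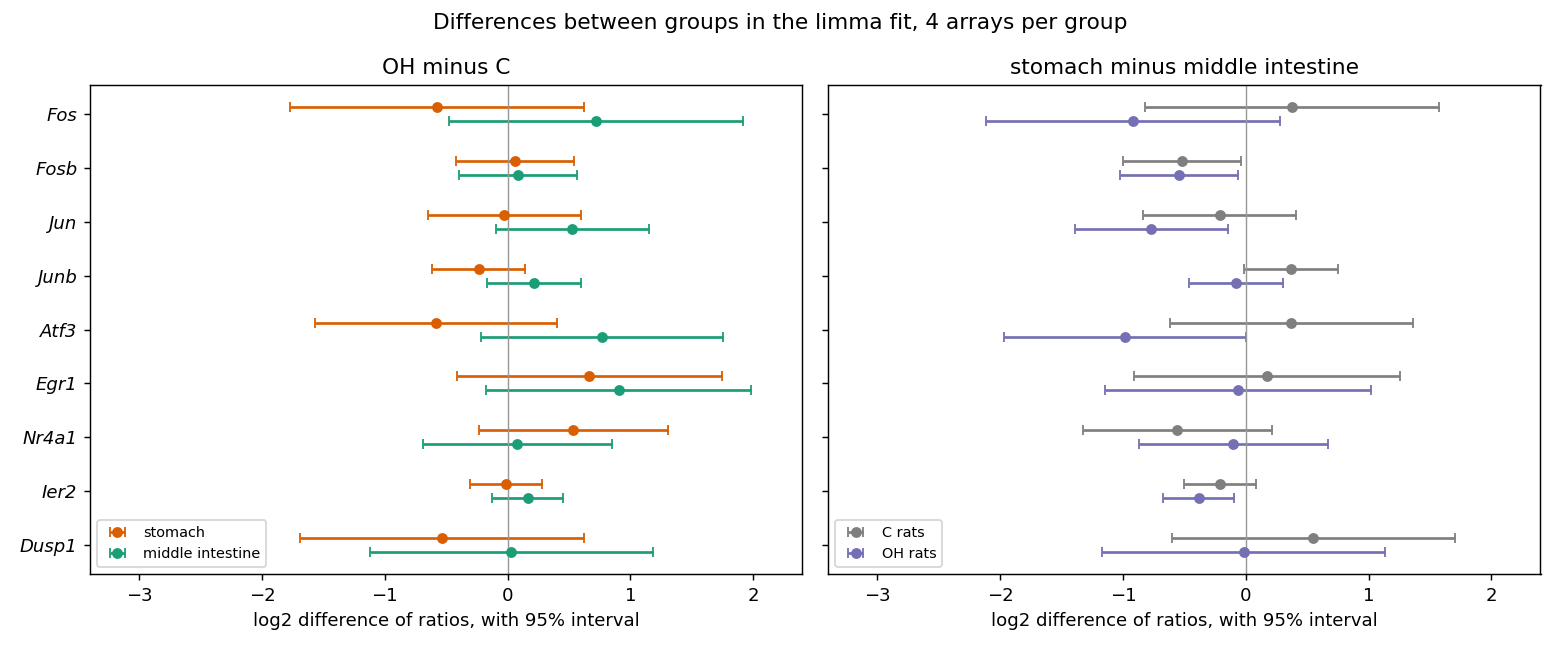
Log2 difference of the ratio between groups with its 95% interval in limma, for OH minus C within each tissue (left) and stomach minus middle intestine within each treatment (right), 9 genes and 4 arrays per group. In middle intestine the estimates of OH minus C run from 0.03 for Dusp1 to 0.90 for Egr1, and every interval for OH minus C includes 0.

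**Figure D3:**
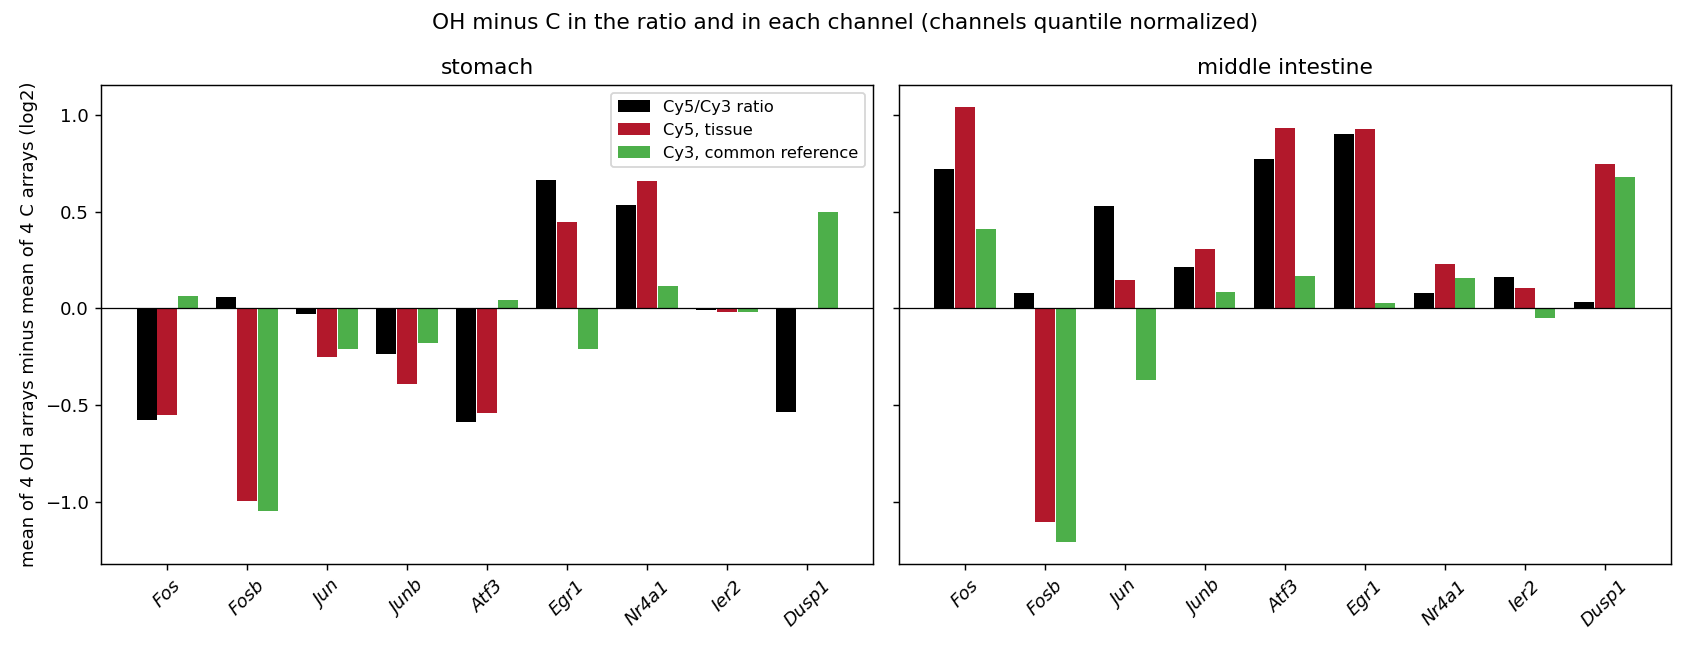
OH minus C on the log2 scale for the ratio (black), the quantile-normalized Cy5 signal of the tissue (red) and the quantile-normalized Cy3 signal of the common reference (green), as differences between means of 4 arrays. For Fosb both channels differed by about the same amount, -0.996 and -1.05 in stomach, and the ratio differed by 0.06.

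Other reference shifts were smaller. The Cy3 signal passed the test between OH and C slides for 7 of the 10 probes in stomach, beside 48.0% of all probes. In middle intestine 8 passed, beside 64.3%. Apart from Fosb the differences of the brightest probes lay between -0.21 and 0.50 in stomach and between -0.37 and 0.68 in middle intestine. For Jun in middle intestine the ratio difference of 0.53 stood beside 0.14 in Cy5 and -0.37 in Cy3. For Fos, Atf3 and Egr1 in middle intestine the Cy5 differences of 1.04, 0.93 and 0.93 were as large as the ratio differences or larger by the brightest probes, and their adjusted p-values in Cy5 alone were 0.538, 0.499 and 0.538 in limma. The second probe of Egr1 gave 0.44 in Cy5 and -0.40 in Cy3 behind its ratio difference of 0.82 in middle intestine. In stomach its ratio difference of 0.55 stood beside 0.11 in Cy5 and -0.45 in Cy3.

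Between the tissues few of these genes passed the test. In saline rats 0 of 10 probes passed for C stomach against C middle intestine, beside 44.9% of all probes, and 1 had an unadjusted p under 0.05, beside 52.3%. The smallest adjusted p was that of Fosb, with a stomach minus intestine difference of -0.52 (SE 0.22, limma adjusted p = 0.072) with groups that did not overlap, as at 43.7% of all probes. Junb had a difference of 0.37 (SE 0.18, limma adjusted p = 0.104) and Nr4a1 one of -0.56 (SE 0.36, limma adjusted p = 0.224). In obestatin rats 2 of 10 probes passed for OH stomach against OH middle intestine, beside 38.2% of all probes: Jun was lower in stomach, with a difference of -0.77 (SE 0.29, limma adjusted p = 0.049), and so was Ier2, at -0.38 (SE 0.14, limma adjusted p = 0.038). At an unadjusted p under 0.05 Fosb joined them, which made 3 genes, beside 46.7% of all probes. The Ier2 and Atf3 arrays did not overlap between the OH tissues, as at 35.2% of all probes, and those of Jun did. Both calls were near the threshold. Jun passed under 19 of 33 other settings, with adjusted p from 0.0139 to 0.196, and Ier2 under 24 of 33, with 0.0154 to 0.163, while Tukey's test, which the methods name, called neither of them. By the methods both tissues were sampled from 4 rats per group, so arrays of the 2 tissues may share rats, which the labels do not settle. With the replicate number as a fixed block Ier2 had an adjusted p of 0.0527 and Jun one of 0.0305 in limma. Without OH middle intestine replicate 4, the array high in pancreas genes, Jun was at -0.63 (limma adjusted p = 0.135), and without OH middle intestine replicate 3 Ier2 was at -0.28 (limma adjusted p = 0.120). By their brightest probes, the 8 genes other than Dusp1 were all lower in OH stomach than in OH middle intestine, against 4 of 8 in saline rats. The differences of Egr1 (-0.06, SE 0.51), Junb (-0.08, SE 0.18) and Nr4a1 (-0.10, SE 0.36) in obestatin rats were smaller than their SE. The second probe of Egr1 was higher in OH stomach, by 0.25 (SE 0.42). The test of obestatin against saline rats here is the difference of the tissue responses given above, which passed for none of these genes. The intervals remain wide, from -2.11 to 0.28 for Fos in obestatin rats, so equality of the tissues is not shown.

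Most of these genes varied widely between rats of a group. The SD of the ratio between arrays of a group, pooled over 4 groups, had a median of 0.549 over the 9 genes and of 0.285 over all 21174 probes, 7 of the 9 were above the latter median, and 4 were above the 90th percentile of 0.606. Fos had an SD of 0.862, above that of 97.4% of probes, Dusp1 0.830, Egr1 0.778 and Atf3 0.709. Nr4a1 followed with 0.549, Jun with 0.439, Fosb with 0.332 and Junb with 0.256, and Ier2, with 0.184, was under most probes, as only 22.5% had a smaller SD. Against the 1000 probes nearest in Cy5 signal, the order was the same at its ends, with 98.2% of them under Fos and 45.3% under Ier2. Spots of a probe within 1 array agreed far better: the SD between the 10 spots of Egr1 was 0.061, so that its arrays differed 12.7 times more than its spots, and for Dusp1, at a dim signal, this factor was 2.85. The pooled SDs of Egr1 and Atf3 were led by C stomach, where they were 1.27 and 1.26. In the other groups the SD lay between 0.48 and 0.59 for Egr1 and between 0.31 and 0.47 for Atf3. No test was made of these spreads.

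**Figure D4:**
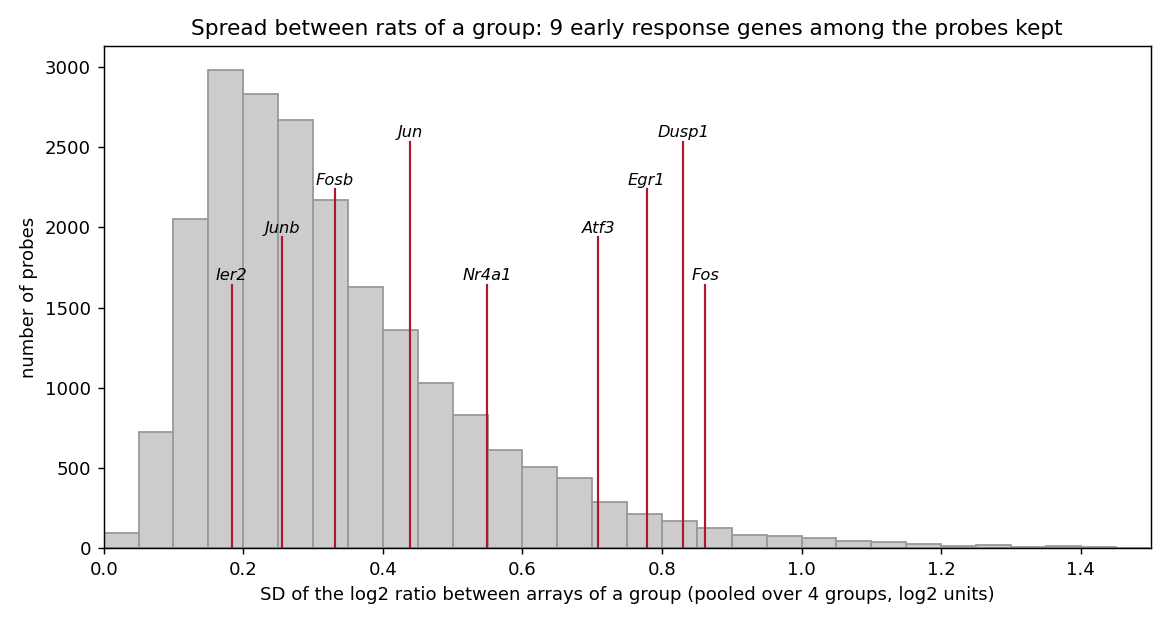
Number of probes (grey bars, 21174 probes, SD above 1.5 not drawn) by the SD of the log2 ratio between arrays of the same group, pooled over 4 groups, with red lines at the 9 genes tested. Fos, Dusp1, Egr1 and Atf3 lie in the right tail above 0.606 and Ier2 lies left of the median of 0.285.

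The same arrays were high or low for several of the genes at once. C stomach replicate 4 was the highest array of its group for 8 of 10 genes, with Fosb and Nr4a1 as exceptions, and its mean deviation from the group mean was 0.78. C stomach replicate 2 was the lowest for 6 of 10, with a mean deviation of -0.60. In OH stomach, replicate 1 was the highest for 5 genes and replicate 3 the lowest for 6. On intestine arrays the mean deviation stayed between -0.17 and 0.11. Over the 16 arrays, which share the reference pool and, within a group, a slide, the deviations of Jun and Atf3 correlated at a Pearson r of 0.74 and those of Fos and Atf3 at 0.65. The value for Egr1 with Egr2 was 0.80, but 12 of the 16 ratios of Egr2 came from arrays on which it was not well above background. Fos and Fosb ran opposite (r = -0.61), as did Fosb and Dusp1 (-0.60). Ier2 and Dusp1, whose promoters share TGACGTCA, had r = -0.21. The median over 45 pairs was 0.27 and 30 pairs were above 0, but without C stomach replicate 4 the median was 0.076. Without the dim genes Egr2 and Dusp1 it was 0.15, with 17 of 28 pairs above 0. For Fos with Egr1 the correlation was 0.91 over 8 stomach arrays and -0.28 over 8 intestine arrays.

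**Figure D5:**
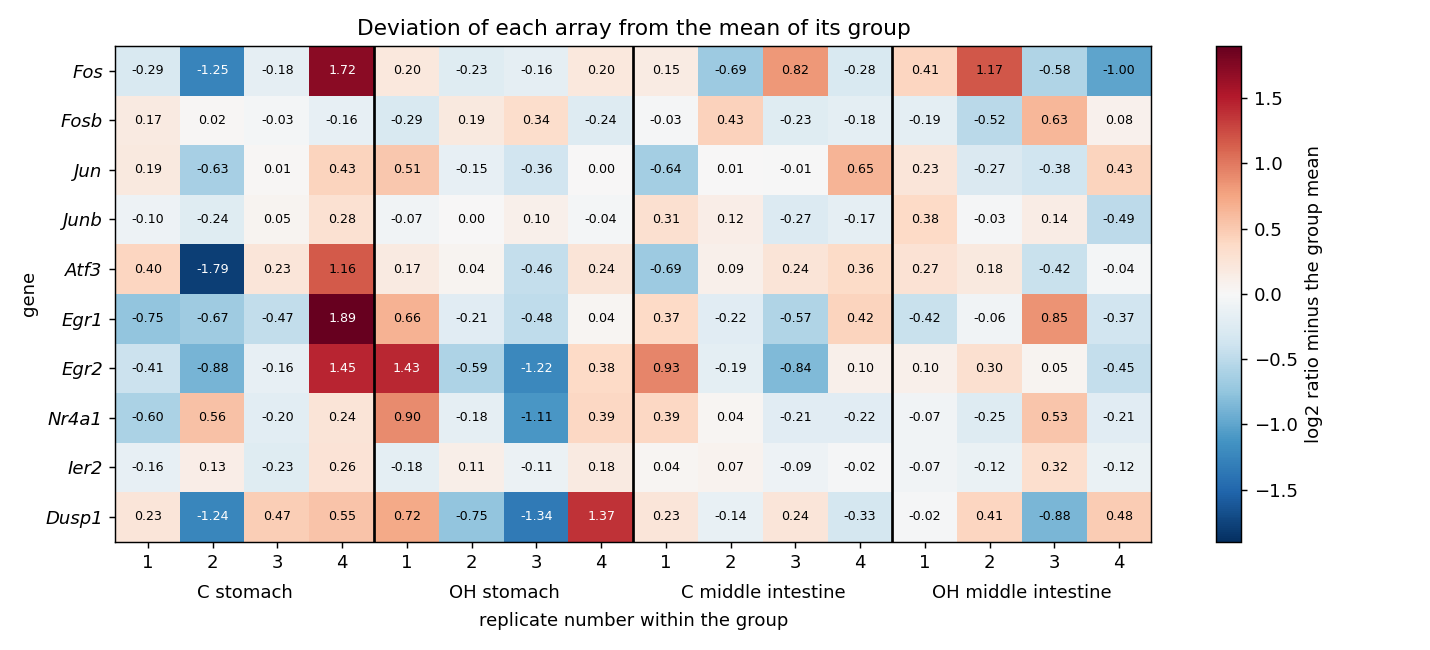
Log2 ratio of each array minus the mean of its group, for 10 genes (rows) and 16 arrays (columns, replicates 1 to 4 of each group); red is above and blue below the group mean. C stomach replicate 4 is above its group mean for all genes but Fosb, and C stomach replicate 2 deviates by -1.25 for Fos and -1.79 for Atf3.

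Muscle genes varied between the same stomach arrays, in an order that a minority of the genes shared. In C stomach 2 of 10 genes ordered the arrays as striated muscle genes did and 0 of 10 as smooth muscle genes did. In OH stomach, where both muscle lists had 1 order, 4 of 10 followed it. The share of all probes with these orders was not counted, so the counts are not read as particular to these genes. The mean of 12 striated muscle genes was 3.55, -0.93, 3.05 and 3.76 in C stomach, the order of Jun and Atf3, and that of 8 smooth muscle genes was -2.16, -2.48, -1.52 and -2.06. In OH stomach the smooth muscle mean, with all 8 genes well above background on every array, was 0.82, -1.45, -2.48 and 0.06 and the striated muscle mean 0.93, -0.26, -0.41 and 0.63, and Jun, Egr1, Egr2 and Nr4a1 followed this order of replicates 1, 4, 2 and 3. Over 16 arrays the mean deviation of the members correlated with that of the striated muscle genes at r = 0.73, of the smooth muscle genes at 0.58, of fibroblast and endothelial genes at 0.59 and of stomach mucosa genes at -0.67. With the other early response lists described below, r was 0.82 for effectors, 0.71 for regulators and 0.16 for AP-1, Egr and Nr4a relatives. It was 0.61 for heat shock genes, 0.27 for other dual-specificity phosphatases and -0.11 for upstream kinases and factors. The part of muscle in the spread of the early response genes was not tested. On intestine arrays the striated muscle mean stayed between -0.998 and -0.88, with 9 or 10 of its 12 genes well above background. Among 15610 probes of other named genes, those most like the mean deviation of the members were of Plcd4 (r = 0.92), Pygm (0.90), Flrt3 (0.89), Msl3l2 (0.88) and Ecm1 (0.88) over the 16 arrays. They are the highest values of that search, and the mean deviation includes the dim genes Egr2 and Dusp1.

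Other genes of the early response gave the same count for obestatin within a tissue. Of 5 tested relatives of the AP-1, Egr and Nr4a families, 15 other regulators such as Klf4, Myc and Zfp36, 20 effectors such as Gadd45b and Sgk1, and 8 other dual-specificity phosphatases, 0 passed in either tissue. The largest differences among the 8 phosphatases were those of Dusp5, an ERK phosphatase of the nucleus, at -1.13 in stomach (SE 0.37, limma adjusted p = 0.332), and of Dusp7 at 1.06 in middle intestine (SE 0.26, limma adjusted p = 0.110). Of 7 stress-inducible heat shock genes 0 passed in either tissue. The medians of these 5 lists lay between -0.19 and 0.013 in stomach and between -0.05 and 0.33 in middle intestine. Upstream, 0 of 21 kinases and factors passed in stomach (0% of all probes) and in middle intestine (0.368%), and 2 passed over both tissues (0.685%), a contrast that coincides with slide and scan day. Map2k3, which activates p38, was lower in OH, with a difference of -0.63 (SE 0.10, limma adjusted p = 0.014), and Map2k7, which activates JNK, was higher, at 0.86 (SE 0.18, limma adjusted p = 0.046). Mapk3, encoding the kinase ERK1, differed by 0.30 (SE 0.076, limma adjusted p = 0.078).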

How the data were processed

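Per the file headers, the authors scanned 16 two-colour arrays (build rn4) and extracted spot intensities with Agilent Feature Extraction, named as version 10.10.1.1 in the headers and 10.7.3.1 in the submitters' notes. The deposited intensity columns are processed red (Cy5) and green (Cy3) signals, background-subtracted and dye-normalized by that software, and the deposited series table holds their log10 ratio, which matched these signals to within 0.0050. Here log2 ratios of Cy5 to Cy3 were taken, spots of a probe averaged, control and outlier spots left out, and probes kept where the Cy5 signal of at least 0.5 of their spots exceeded background clearly on each of the 4 arrays in some group, which left 21174 of 30367. For genes with several probes the brightest was used. A model over all 16 arrays, with a coefficient for each group, was fitted in limma 3.58.1 (R 4.3.3), with Benjamini-Hochberg adjustment over all kept probes and an adjusted p of 0.05. Each array is a different rat within its group, and p-values rest on the spread between these arrays. Exact two-sided permutation tests enumerated all splits of 4 against 4 arrays in R. No slide block could be fitted, since each slide holds 1 group. The scripts were tested on simulated data.

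The members and all gene lists were chosen with earlier results of these data known. By rule the text names all 10 members, genes of the other lists called for OH against C, at most the 3 largest called in each direction per list between tissues, Map2k3 and Mapk3, and the 5 genes most like the mean deviation of the members. Dusp5, and Dusp7 for OH against C, were named after their values were seen. Marker lists for leukocytes, enteric neurons and pancreas correlated with that deviation at r = 0.27, 0.25 and -0.36 over 16 arrays, and enterocytes at 0.017.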

Additional observations from a re-analysis of the deposited data

Results flagged for a closer look

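Among 40 sets of 4 arrays (10 genes in 4 groups), 2 held an array far from the other 3 by Dixon's ratio, the gap to the nearest array over the whole range, against Dixon's 95% critical value. Chance alone flags about 1 set in 20, or 2 of 40. Egr1 in C stomach had its highest value on replicate 4, with a ratio of 0.894, at 1.66 against -0.71 for the nearest array. Ier2 in OH middle intestine had its highest value on replicate 3, with a ratio of 0.883, at 0.85 against 0.45 for the nearest array.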

How the results depend on the processing

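Of 608 member values for OH against C within a tissue under other settings, 579 kept their sign and 1 passed the threshold. Many of these settings cannot change such a difference. Examples are an array of the other tissue left out, another eBayes option, no adjustment of p, and Tukey's test. The count of kept signs is therefore no measure of stability. Between-array quantile scaling of average signal leaves ratios as they are and gave no other value, and neither the arrays of the compared groups alone nor Tukey's test gives a value for the contrasts that join all 4 groups.

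In Cy5 alone 1 member probe passed for OH against C in middle intestine, beside 1.17% of all probes, and 1 over both tissues, beside 4.07%. Without adjustment of p 2 passed over both tissues, beside 14.5%. For C stomach against C middle intestine 1 passed with the compared groups alone (44.4% of all probes), 2 with array weights (56.0%) and 1 without adjustment (52.3%). In the same contrast 2 passed without the arrays standing apart (40.8%), and 0 to 1 when 1 array was left out (38.2% to 46.3%). For OH stomach against OH middle intestine 3 passed with normexp and loess (40.7% of all probes) and 3 without adjustment (46.7%). In the same contrast 0 passed with ratios scaled to 1 spread (25.8%), 1 in Cy5 alone (37.7%) and 0 without a filter (29.5%). With array weights 1 passed (40.4%), by ANOVA and Tukey's test 0 (33.6%), and when 1 array was left out 0 to 3 (32.6% to 39.6%).

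Same-numbered arrays did not deviate together in every pair, and whether a number marks 1 rat in both tissues is not given in the labels. With the replicate number as a fixed block 1 member probe passed for OH stomach against OH middle intestine, beside 38.0% of all probes. With a random block 3 passed, beside 41.6%. The block moved no other member count.

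Differences whose sign turned are given here, and the cause was not tested. For OH against C in stomach, Fosb was at -0.0018 with normexp and loess, -0.034 with ratios scaled to 1 spread, -0.996 in Cy5 alone, -0.052 to 0.16 with 1 array left out. Jun was at 0.023 with ratios scaled to 1 spread, -0.24 to 0.11 with 1 array left out. Ier2 was at 0.10 with array weights, 0.033 without the arrays standing apart, -0.086 to 0.076 with 1 array left out. Dusp1 was at 0.0012 in Cy5 alone. For OH against C in middle intestine, Fosb was at -1.103 in Cy5 alone, -0.070 with array weights, -0.13 to 0.26 with 1 array left out. Nr4a1 was at -0.051 with array weights, -0.10 to 0.21 with 1 array left out. Dusp1 was at -0.080 with normexp and loess, -0.16 with ratios scaled to 1 spread, -0.13 without the arrays standing apart, -0.13 to 0.32 with 1 array left out. For C stomach against C middle intestine, Fos was at -0.19 to 0.80 with 1 array left out. Jun was at -0.43 to 0.0030 with 1 array left out. Egr1 was at -0.46 to 0.42 with 1 array left out. Atf3 was at -0.016 to 0.97 with 1 array left out. For OH stomach against OH middle intestine, Junb was at -0.24 to 0.047 with 1 array left out. Egr1 was at 0.019 with array weights, 0.091 with the mean over probes, -0.28 to 0.22 with 1 array left out. Nr4a1 was at 0.021 with ratios scaled to 1 spread, -0.40 to 0.27 with 1 array left out. Dusp1 was at 0.34 with ratios scaled to 1 spread, 0.0083 in Cy5 alone, 0.15 without the arrays standing apart, -0.47 to 0.43 with 1 array left out.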

Other observations

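Several relatives of these genes differed between stomach and middle intestine. Nr4a2, an orphan nuclear receptor, was higher in stomach by 1.98 in saline and 1.99 in obestatin rats, and Klf4, a zinc finger factor of epithelia, by 2.31 and 1.40. Sik1, a salt-inducible kinase, was higher by 1.76 and 1.74, and the phosphatases Dusp9 and Dusp7 by 2.61 and 2.42 in saline and by 2.87 and 0.99 in obestatin rats. Ier5 differed the other way, at -0.94 and -1.26, as did Trib1, at -0.92 and -1.27. The inducible heat shock gene Hspa1b was higher in stomach by 1.96 and 1.93. All of these log2 differences passed the test (limma, adjusted p under the threshold, 4 arrays per group), as did 44.9% of all probes in saline and 38.2% in obestatin rats.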
